A study of Zea mays with 8 samples.

Results

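The 8 genes described here encode the structural enzymes of flavonoid and anthocyanin synthesis in maize (Zea mays), among 44135 gene identifiers in the deposited table. They were chosen by identifier for their place in the pathway and not by a measured value, though earlier results of these data were known. In pathway order they are c2 (Zm00001d052673), whp1 (Zm00001d007403), chi1 (Zm00001d034635), fht1 (Zm00001d001960), pr1 (Zm00001d017077), a1 (Zm00001d044122), a2 (Zm00001d014914) and bz1 (Zm00001d045055). The names come with that selection. The table itself holds identifiers only and the RefSeq gene table matched 0 of the 8, so the pairing of names and identifiers was not checked, and no sequence or position is given.

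RNA was sequenced from leaf 4 of 14 d old greenhouse plants of the cultivar Golden Queen, a leaf that had emerged without being fully expanded. The 4 SLB libraries came from leaves that received a spore suspension and were sampled at 24 h. The 4 control libraries came from leaves that received 0.1% Tween 20, also sampled at 24 h. In the published study SLB means southern leaf blight, which is caused by the fungus Cochliobolus heterostrophus, and the comparison asks which maize transcripts differ between inoculated and mock-treated leaves. The labels name no genetic modification and no other treatment for either group. Whether a library is 1 plant or a pool is not stated, and a p-value thus covers only the variation among these samples, which could be technical. The genome build, B73 RefGen_v4, is of another cultivar than the plants.

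Flavonoid synthesis branches from phenylpropanoid metabolism at chalcone synthase, which joins p-coumaroyl-CoA with malonyl-CoA units to a chalcone. Chalcone isomerase closes the ring to a flavanone, flavanone 3-hydroxylase makes dihydroflavonols, and flavonoid 3′-hydroxylase adds a hydroxyl group to the B ring. Dihydroflavonol reductase, anthocyanidin synthase and a glucosyltransferase then complete an anthocyanin, the red to purple pigment of maize kernels, husks and sheaths. In sorghum, a related grass, leaves attacked by fungi are known to make 3-deoxyanthocyanidins, pigments that also draw on chalcone synthase. The gene pr1 is red aleurone1 and is unrelated to the pathogenesis-related protein of the same abbreviation.

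Values are FPKM, fragments divided by transcript length and by the mapped fragments of the library, so levels of different genes can be compared per length. Summed FPKM ran from 706734 to 755209 in SLB libraries and from 1415306 to 2118483 in controls, and genes at 1 FPKM or more numbered 19013 to 19181 and 16304 to 17565. The sequencing depth is unknown. A gene was tested where at least 4 of the 8 libraries reached 1 FPKM, which kept 19407 genes. Fold changes are differences of mean log2(FPKM + 1), SLB minus control, from limma with Benjamini-Hochberg adjustment over those genes, a scale that understates changes of low genes. Over the tested genes the log2 fold change had a median of 0.69, or of 0.02 after median-ratio scaling. In whole leaves, more cells expressing a gene and more RNA per cell cannot be told apart.

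The early genes of the pathway split in direction. Both chalcone synthase genes and the flavanone 3-hydroxylase gene fht1 rose in SLB leaves, with c2 at 9.85 times the control mean and fht1 at 37.3 to 42.2 FPKM against at most 0.32 FPKM in controls. The chalcone isomerase gene chi1 and the flavonoid 3′-hydroxylase gene pr1 fell, with control means 3.70 and 4.56 times the SLB means, although neither passed the threshold once libraries were set to equal summed FPKM. The last genes of the anthocyanin branch, a1, a2 and bz1, stayed below 2 FPKM in every library, with the exception of a2 in 1 control. Of the 8 genes, 5 passed the filter on low values and were tested. In limma 3 of them rose and 2 fell, where 56% of all tested genes rose and 24.6% fell. Since whp1 and fht1 passed the filter through their SLB values, and since calls were this common, the counts are a description. In the same 3 genes every SLB library lay above every control, as in 53.3% of all tested genes, and in the same 2 every SLB library lay below, as in 22.2%.

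**Figure D1:**
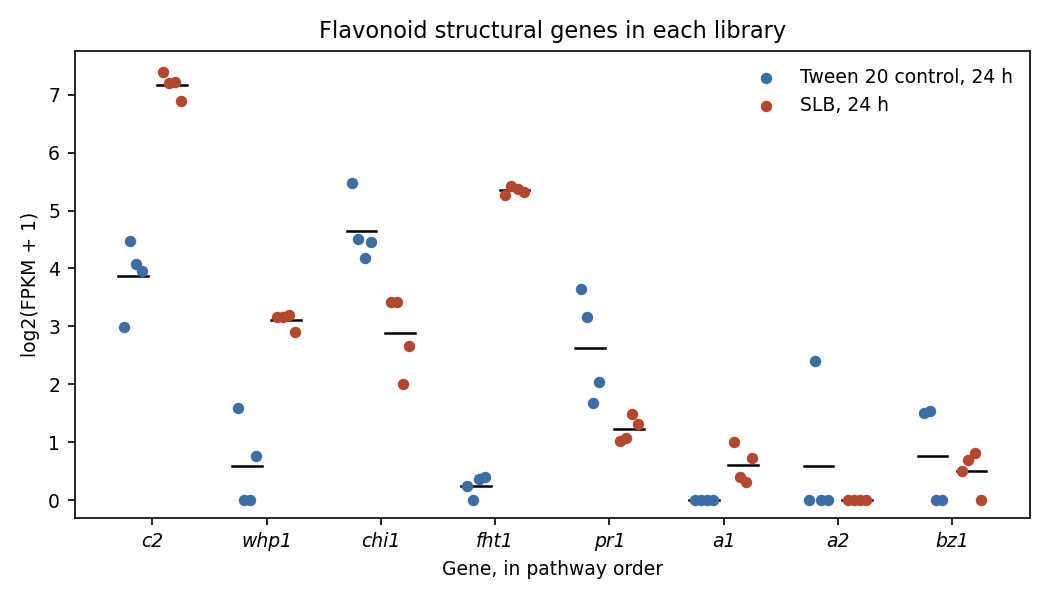
Level of each gene in each of the 8 libraries, as log2(FPKM + 1), with genes in pathway order. Each point is 1 library (blue, Tween 20 control; red, SLB; 4 per group) and black lines are group means. The groups stand apart upwards for c2, whp1 and fht1 and downwards for chi1 and pr1, and most values of a1, a2 and bz1 lie near 0.

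Chalcone synthase, the entry enzyme, is encoded by c2 (colorless2) and whp1 (white pollen1), a pair of related copies. In SLB replicates 1 to 4, c2 was at 166, 145, 147 and 117 FPKM. In control replicates 1 to 4 it was at 6.96, 21.2, 15.8 and 14.6 FPKM. The groups did not overlap, and control replicate 1 was the lowest library. The means were 144 ± 20.2 FPKM (SD, n = 4) with SLB and 14.6 ± 5.87 FPKM (SD, n = 4) in controls. The log2 fold change of c2 was 3.30 (SE 0.28, limma adjusted p = 3.9e-06), and 4.25% of all tested genes had a higher one. By rank, c2 stood above 94.8% to 96.4% of tested genes in SLB libraries and above 57.4% to 77.0% in controls, a measure that a scale factor on a library leaves as it is.

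The second copy, whp1, was at 8.02, 7.99, 8.20 and 6.49 FPKM in SLB replicates 1 to 4. In controls it was at 2.01 FPKM in replicate 1 and 0.702 FPKM in replicate 4, and was listed at 0 in replicates 2 and 3. All SLB libraries were higher than all controls. Its log2 fold change was 2.52 (SE 0.33, limma adjusted p = 6.39e-05). As whp1 passed the filter only with its SLB values, that p-value is a description. Without a filter on low values the limma adjusted p of whp1 was 0.000359. A value of 0 in this table may be a failed estimate, so no fold on the linear scale is given for whp1 or fht1, and the fit takes a listed 0 as it stands.

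Within the SLB libraries c2 supplied nearly all of the transcript of the chalcone synthase pair. The share of whp1 in the summed FPKM of both copies was 4.60%, 5.22%, 5.27% and 5.24% in SLB replicates 1 to 4, a narrow range. In controls the share was 22.4% in replicate 1 and 4.59% in replicate 4, with whp1 listed at 0 in the others, so the control shares span those of the SLB libraries. How fragments shared by the copies were assigned is not given in the sources used here, and each copy's value is uncertain to that extent. Summed over both copies, the level was 152 ± 20.9 FPKM (SD, n = 4) with SLB and 15.3 ± 5.0 FPKM (SD, n = 4) in controls. Tested as 1 row in place of the separate copies, the sum rose by 3.27 on the log2 scale (SE 0.23, limma adjusted p = 1.18e-06).

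The transcript of chi1, the member listed for chalcone isomerase at the second step, moved the other way. Whether other genes also encode this enzyme was not checked. In SLB replicates 1 to 4, chi1 was at 9.74, 9.75, 3.04 and 5.35 FPKM. In control replicates 1 to 4 it was at 43.2, 21.8, 17.1 and 21.1 FPKM. The groups did not overlap, although the spread within each was wide, with replicate 3 the lowest in both and replicate 1 the highest control. The means were 6.97 ± 3.34 FPKM (SD, n = 4) and 25.8 ± 11.8 FPKM (SD, n = 4), and the log2 fold change was -1.77 (SE 0.37, limma adjusted p = 0.00149). With libraries set to equal summed FPKM it was -0.61 and did not pass the threshold (limma adjusted p = 0.102). By rank, chi1 stood above 22.6% to 52.0% of tested genes in SLB libraries and above 72.9% to 85.7% in controls.

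Flavanone 3-hydroxylase, encoded by fht1, had the highest fold change of the 5 tested members. It was at 37.3, 42.2, 40.5 and 38.9 FPKM in SLB replicates 1 to 4. In controls it was at 0.188, 0.287 and 0.32 FPKM in replicates 1, 3 and 4, and was listed at 0 in replicate 2. Among the tested genes, fht1 thus stood above at most 9.20% in controls and above 82.4% to 85.0% in SLB libraries. The filter keeps genes that are low in both groups out of this rank. The mean was 39.7 ± 2.10 FPKM (SD, n = 4) with SLB, a coefficient of variation of 5.29%. The log2 fold change was 5.09 (SE 0.13, limma adjusted p = 7.14e-09), and 204 of the 19407 tested genes, or 1.05%, had a higher one. As fht1 passed the filter through its SLB values alone, this p-value and rank are descriptions. Without a filter on low values the limma adjusted p of fht1 was 9.47e-08.

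Flavonoid 3′-hydroxylase, encoded by pr1, sets how many hydroxyl groups the B ring of the pigment carries. Its level was 1.04, 1.11, 1.81 and 1.5 FPKM in SLB replicates 1 to 4. In control replicates 1 to 4 it was 11.6, 7.95, 2.21 and 3.11 FPKM. The groups did not overlap, but the highest SLB library and the lowest control, both replicate 3, stood close to each other. The means were 1.36 ± 0.357 FPKM (SD, n = 4) and 6.21 ± 4.38 FPKM (SD, n = 4), and the log2 fold change was -1.40 (SE 0.40, limma adjusted p = 0.00878). With equal summed FPKM it was -0.50 and did not pass the threshold (limma adjusted p = 0.159). By rank, pr1 stood above 5.94% to 13.4% of tested genes in SLB libraries and above 26.4% to 67.0% in controls.

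**Figure D2:**
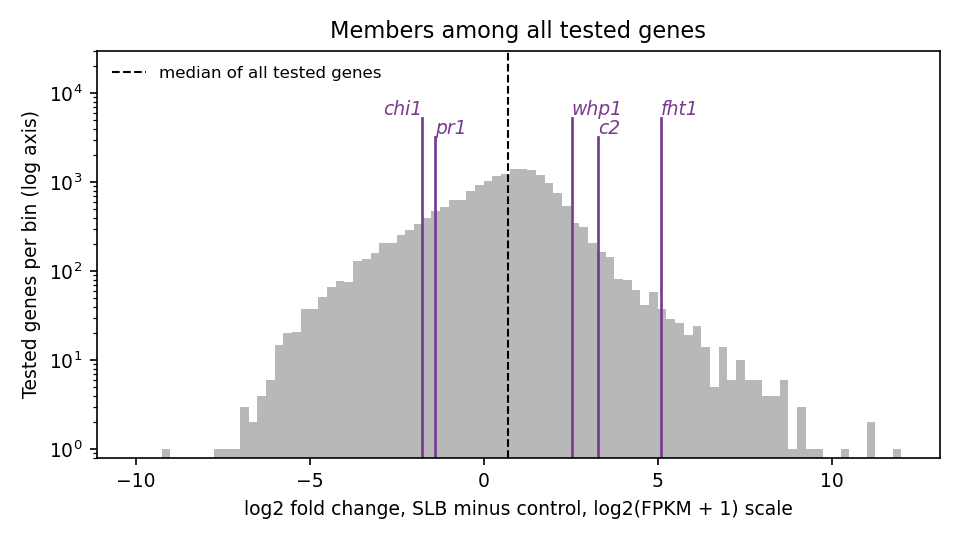
Distribution of the log2 fold change, SLB minus control on the log2(FPKM + 1) scale, over 19407 tested genes (grey bars, log axis of genes per bin). The dashed line is the median of all tested genes, 0.69, and purple lines mark the 5 tested members: chi1 and pr1 lie below 0, and whp1, c2 and fht1 lie above the median.

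The late genes were at the edge of detection. Dihydroflavonol reductase, encoded by a1, was at 1.00, 0.331, 0.253 and 0.664 FPKM in SLB replicates 1 to 4 and was listed at 0 in all 4 controls. The groups do not overlap, but a1 reached 1 FPKM in 1 library and was not tested under the filter. Without a filter on low values it passed the threshold (log2 fold change 0.62, SE 0.14, limma adjusted p = 0.00511), where 43.6% of 30738 genes rose and 16.9% fell. Over the whole table, 901 genes were above 0 in all 4 SLB libraries and listed at 0 in all 4 controls, and 47 showed the opposite. Controls also listed more genes at 0, with 19506 to 21083 in each against 16064 to 19486 in each SLB library. Of the 901, 372 had an SLB mean no higher than that of a1, 0.563 ± 0.344 FPKM (SD, n = 4), so a1 was 1 of many low genes with this pattern.

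Anthocyanidin synthase, encoded by a2, was listed at 0 in 7 libraries and at 4.27 FPKM in control replicate 2. Over the whole table, 130 genes were listed above 0 in a single library while reaching 4 FPKM or more there, and 23 of these were in control replicate 2. Such genes were more common in controls, with 21 to 35 in each control and 3 to 6 in each SLB library. Glucosylation of anthocyanidins is the task of the bz1 product. This gene was at 0.418, 0.615 and 0.769 FPKM in SLB replicates 1 to 3 and listed at 0 in replicate 4. It was at 1.83 and 1.90 FPKM in control replicates 1 and 2 and listed at 0 in replicates 3 and 4. The groups of bz1 overlapped, and the controls with the higher bz1 values were also those with the higher pr1 values. Without a filter on low values neither gene passed the threshold, the log2 fold change being -0.60 for a2 (SE 0.53, limma adjusted p = 0.369) and -0.25 for bz1 (SE 0.42, limma adjusted p = 0.62). The spread between libraries was wide for both, so these p-values do not show that the genes stayed the same.

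The order of levels per length differed between the groups. In SLB libraries the means fell from c2 through fht1, whp1, chi1, pr1, a1 and bz1 to a2. Neighbours in that order held it in 4 of 4 libraries for c2 over fht1, fht1 over whp1, chi1 over pr1 and pr1 over a1. They did so in 2 of 4 for whp1 over chi1 and for a1 over bz1, so these pairs are not ranked, and no test was run. In controls chi1 led, above c2 in 4 of 4 libraries, and c2 was above pr1 in 3 of 4. Below pr1 no order held among a2, bz1, whp1 and fht1, each of which was listed at 0 in at least 1 control. The 8 genes summed to 201 ± 22.4 FPKM (SD, n = 4) with SLB, of which c2 was 71.6% ± 2.50 (SD, n = 4). They summed to 49.5 ± 14.4 FPKM (SD, n = 4) in controls, of which c2 was 32.2% ± 14.9 (SD, n = 4).

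Ratios between members in the same library do not depend on a scale factor of that library. The FPKM of chi1 divided by that of both chalcone synthase copies was 0.0559, 0.0637, 0.0195 and 0.0432 in SLB replicates 1 to 4. In control replicates 1 to 4 it was 4.82, 1.03, 1.08 and 1.38. As listed, every control held more chi1 than chalcone synthase transcript per length, while every SLB library held far less. The control margin was small in replicates 2 and 3, where the 0 listed for whp1 may be a failed estimate. The mean log2 ratio was -4.59 ± 0.764 (SD, n = 4) with SLB and 0.72 ± 1.05 (SD, n = 4) in controls, a difference of -5.31. The two-sided exact permutation test gave p = 0.0286, the smallest that 4 against 4 libraries allow. With c2 and whp1 higher in every SLB library and chi1 lower, the ratio had to separate the groups completely. That p-value was therefore fixed by the separations given above and is no further test. The ratio shows that the genes changed unequally and not which of them changed. It was the 1 of 7 ratios planned between neighbouring steps that had no side listed at 0 in any library. The summed side stayed above 0 through c2 in the controls with whp1 listed at 0.

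The level of fht1 relative to c2 also stood apart. It was 22.4%, 29.0%, 27.5% and 33.1% of c2 in SLB replicates 1 to 4, and 2.70%, 0%, 1.82% and 2.20% in control replicates 1 to 4. No control overlapped an SLB library, and no test was run on this relation, which was chosen after the values were seen. The FPKM of pr1 divided by that of chi1, also chosen then, was 0.107, 0.114, 0.594 and 0.280 in SLB libraries and 0.268, 0.364, 0.129 and 0.147 in controls. These ranges overlapped, with a difference of mean log2 ratios of 0.03 (two-sided exact permutation test, p = 0.971, n = 4 per group). Leaving out 1 library moved that difference between -0.47 and 0.36, so a like fall of both genes is not shown.

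**Figure D3:**
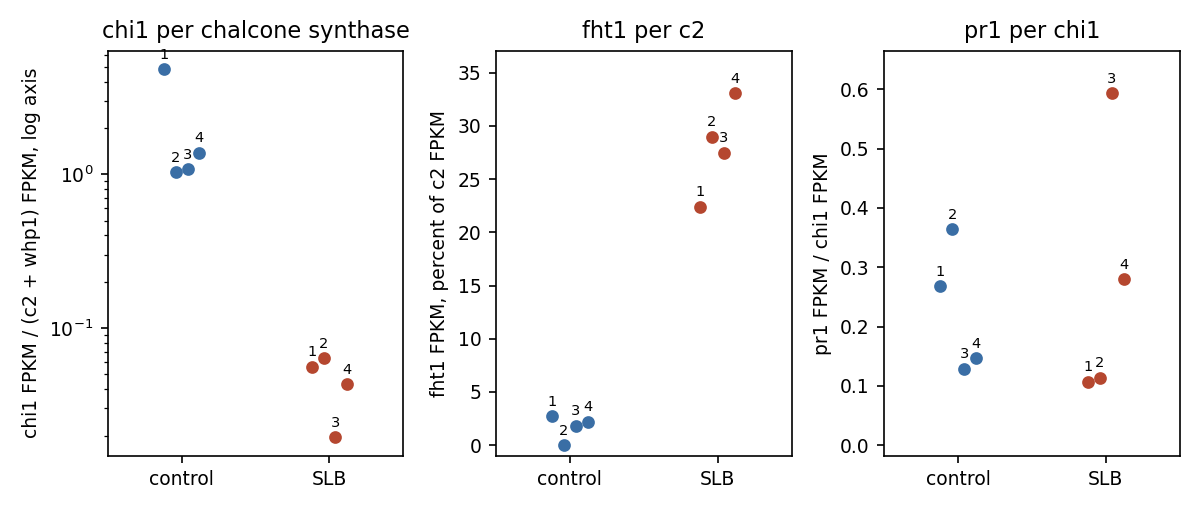
Ratios of FPKM between members within each library, 1 point per library, with the replicate number beside it (blue, control; red, SLB; 4 per group). Left, chi1 over the sum of c2 and whp1 (log axis), 1.03 to 4.82 in controls and 0.0195 to 0.0637 with SLB; middle, fht1 as a percent of c2, at most 2.70% in controls and at least 22.4% with SLB; right, pr1 over chi1, where the groups overlap.

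The direction of the 5 tested genes held under each of 5 rescalings of the libraries, but the sizes moved. The log2 fold change ran from 2.49 to 4.49 for c2, from 1.85 to 3.29 for whp1 and from 4.61 to 5.79 for fht1, and all of these passed the threshold in limma. It ran from -2.52 to -0.61 for chi1 and from -2.13 to -0.50 for pr1. Both ceased to pass with equal summed FPKM, a scaling under which the median of all tested genes was 1.65. The pseudocount moved the folds of the genes listed at 0 in controls further than any scaling did. With 0.1 FPKM added in place of 1, the log2 fold change was 4.42 for whp1 and 7.25 for fht1, against 3.39 for c2, so that whp1 came to stand above c2. For chi1 and pr1 it was then -1.93 and -1.84, and all 5 calls held.

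**Figure D4:**
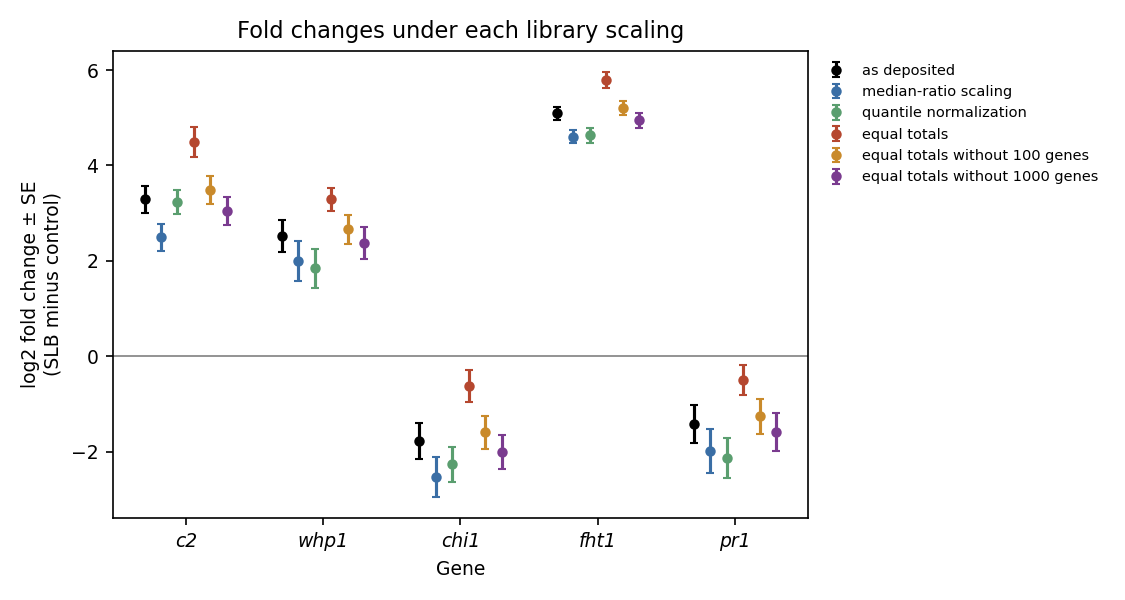
Log2 fold change (SLB minus control) of the 5 tested genes with FPKM as deposited and under 5 rescalings of the libraries; points are limma estimates and bars are ± 1 SE. The signs are kept under every scaling shown, and chi1 and pr1 come nearest to 0, at -0.61 and -0.50, with equal totals.

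Outside the 8 genes, those closest in pattern to c2, the member with the highest mean, were Zm00001d020783 and Zm00001d023611. Their log2(FPKM + 1) correlated with that of c2 at r = 0.996 each over the 8 libraries. Zm00001d020783 was at 64.7 ± 3.82 FPKM (SD, n = 4) with SLB and 7.57 ± 2.37 FPKM (SD, n = 4) in controls. Zm00001d023611 was at 7.79 ± 1.08 FPKM (SD, n = 4) with SLB and 0.922 ± 0.554 FPKM (SD, n = 4) in controls. High values were common, since the groups differ in most genes: r exceeded 0.95 for 5889 of the other 19402 genes, or 30.4%. Among the members it was 0.967 for fht1, 0.841 for whp1, -0.883 for chi1 and -0.818 for pr1. These correlations are descriptions of 8 libraries in 2 groups.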

How the data were processed

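Stranded messenger RNA libraries were sequenced from 8 leaf samples, and the authors deposited FPKM values in 1 table, a column for each library. Per the submitters' processing notes, B73 RefGen_v4 was the genome build and Trimmomatic 0.32 trimmed the reads. Aligner, quantifier and any scaling between libraries: not given in the sources used here. All columns were used (0 left out).

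FPKM were taken to log2(FPKM + 1) and fitted with limma 3.58.1 in R 4.3.3 (group, empirical Bayes with trend, two-sided). A gene entered if 4 or more of the 8 libraries reached 1 FPKM, and p-values were adjusted over all 19407 such genes, with a threshold of 0.05. Rows of the 8 genes were read from that fit. The fit was tested on simulated data with few changed genes, as many up as down, and no scale difference between libraries. That setting is unlike these data, where most genes were called and summed FPKM differed between the groups. Ratios within libraries were compared by exact permutation in Python 3.11.15 with scipy 1.17.1.

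Depth is unknown. Log2 ratios of values between 0.05 and 0.4 FPKM were binned (width 0.02) in each of 28 library pairs. The fullest bin held 1.13% to 3.48% of genes, with the highest share between SLB replicates 1 and 3. The share expected without a step worth 1 read was not computed, so these values do not settle whether such a step is present. Among genes above 1 FPKM, at most 0.038% had the same value to the 3 deposited decimals in any pair, so no library was treated as a duplicate.

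The 8 genes, lists and tests were chosen with earlier results of these data known. All 8 genes are named, with the 2 others most like c2 in pattern. Further pathway genes (regulators, late steps, side branches and upstream genes) and cell type markers were listed by symbol. The RefSeq gene table (assembly Zm-B73-REFERENCE-NAM-5.0) matched 0 identifiers of the FPKM table, so they were not tested and the labelled leaf was not checked against markers. Alternatives were other pseudocounts, filters, scalings and variance models, a block on replicate number, and omission of single libraries.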

Additional observations from a re-analysis of the deposited data

Results flagged for a closer look

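In 3 of 20 groups of 4 libraries checked, 1 library stood far from the other 3. The cut-off gives about 1 in 20 for independent, normally distributed values. That rate is only a rough guide here, as several groups hold values listed at 0 and the ratios reuse the same genes. The groups of a1 in controls and a2 with SLB were listed at 0 throughout and could not be flagged. SLB replicate 4 had 6.49 FPKM of whp1, while the other SLB libraries had 7.99 to 8.20 FPKM, and the same library was also the lowest SLB library for c2. Control replicate 2 had 4.27 FPKM of a2 beside 3 controls listed at 0, and with ties at 0 any value above 0 stands apart in this way. Control replicate 1 had 4.82 times as much chi1 as summed c2 and whp1, while the other controls had 1.03 to 1.38 times as much. Without that library the difference in mean log2 ratio between the groups was -4.79. That library also had the highest summed FPKM, 2118483, though a ratio within a library does not depend on its scale factor.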

How the results depend on the processing

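Over 19 alternatives the 5 tested genes gave 94 values, of which 92 kept their direction and their side of the threshold, 0 changed sign and 2 no longer passed. Those 2 were chi1 and pr1 with equal totals, so 0 members fell there. The filters, the fit without a trend and the replicate block leave each fold change as it is, so its sign could not change there. Fits that leave out 1 library share most of their data. The 94 values are thus not independent checks. With a filter at 5 FPKM 1 member fell, because pr1 was no longer tested. Without a filter 4 members rose, a1 being the addition. Leaving out each library gave 3 members rising and 2 falling throughout, with log2 fold changes of 3.0 to 3.5 for c2, 2.33 to 2.86 for whp1, 5.01 to 5.14 for fht1, -1.95 to -1.48 for chi1 and -1.72 to -1.06 for pr1 (limma adjusted p at most 0.0249), and 10541 to 11075 rising and 4534 to 4814 falling genes in all. With FPKM as deposited 10863 of all tested genes rose and 4773 fell. Median-ratio scaling gave 7764 and 7456, and equal totals 14467 and 2340, shifts that follow from moving all genes of a library by 1 factor.

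The difference in the log2 ratio of chi1 to summed c2 and whp1 was -5.54 to -4.79 leaving out each library, where the smallest exact permutation p is 0.0571 and the threshold cannot be reached. That of pr1 to chi1 changed sign in 4 of these, within -0.47 to 0.36. The labels do not say that a replicate number marks a shared batch, so the numbers were not taken as pairs. Deviations from the group means correlated at 0.0485, 0.0152, 0.126 and 0.112 between the SLB and control libraries numbered 1 to 4. Correlations between differently numbered libraries were not computed, so these values do not settle whether the numbers mark pairs. With the number as a replicate block the 5 genes kept their calls. The chi1 ratio difference of -5.31 then had p = 0.125 by exact sign flips, the smallest that 4 pairs allow. This value too was fixed by the complete separation of the groups. Depth is unknown, so low values, those of a1, a2 and bz1 among them, carry a counting error that FPKM do not show.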

Other observations

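The members differed in how evenly they were expressed within a group. In SLB libraries fht1 had a coefficient of variation of 5.29%, where the 4336 tested genes within a factor of 2 of its level had a median of 12.1%, and 12.1% of those genes were more even. For chi1 it was 47.9% in SLB libraries, against a median of 15.3% over 6973 genes of like level, 94.0% of which were more even. In controls c2, chi1 and pr1 varied by 40.1%, 45.7% and 70.6%, where genes of like level had medians of 20.5%, 18.5% and 24.2%. Control replicate 1 was the lowest control for c2 and the highest for whp1, chi1 and pr1. These are descriptions of 4 libraries per group with no test.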
